A study of Mus musculus with 2 samples.

Results

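Large-vessel endothelial cells were taken as the cell barcodes of a pooled heart and liver library that held at least 1 UMI each of Cdh5, Gja5 and Vwf, a UMI (unique molecular identifier) being 1 counted RNA molecule. Fewer than 2 UMIs of Npr3 and fewer than 3 UMIs of Stab2 were allowed, so that endocardial and sinusoidal cells were mostly left out. The limits on quality were 2000 to 75000 gene UMIs, more than 500 detected genes, and under 5% of UMIs each from mitochondrial and haemoglobin genes. In all, 102 of 14350 barcodes past these limits were members, which is 102 of the 8319 barcodes with a Cdh5 UMI (1.23%, exact binomial 95% interval 1.00 to 1.49%). They were set against 6841 comparison barcodes, which had a Cdh5 UMI, neither Gja5 nor Vwf, and no limit on Npr3 or Stab2. Because Gja5, Vwf, Cdh5, Npr3 and Stab2 selected the barcodes, their levels are given only as a description.

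Cdh5 encodes VE-cadherin, the junction protein of endothelial cells (ECs). Gja5 encodes connexin 40, a gap junction protein of arterial endothelium, and Vwf encodes von Willebrand factor, the clotting protein that ECs of larger arteries and veins store in Weibel-Palade bodies. Arterial ECs depend on Notch signalling, in which a ligand on a neighbouring cell (Dll4, Jag1 or Jag2) activates a Notch receptor and switches on Hey and Hes genes. The walls of large vessels hold elastic fibres of elastin (Eln), fibulins and microfibrils, which capillaries lack.

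The cells came from C57BL/6 pups that received 1 dose of 40 mg/kg 4-hydroxytamoxifen on postnatal day 3 and were collected 3 days later, at P6 to P7. Controls were compared with pups carrying Cdh5-CreERT2, an endothelial tamoxifen-inducible Cre, together with iSuRe-Cre or iSuRe-HadCre, which add Cre and a membrane Tomato reporter (MbTomato) once recombined. Notch1 was the floxed gene of the single-cell experiment, although the sample labels name no floxed allele. The control genotype, including whether it held Cdh5-CreERT2, was not given in the sources used here. CD31+ MbTomato+ cells were sorted (the series' design speaks of the presence or absence of Tomato), each tissue and genotype got its own hashtag antibody, and all 6 were run as 1 library, whose RNA and hashtag reads are the 2 labelled samples. How many pups each hashtag stands for is not stated, so each group is 1 sample, no p-value can be had, and intervals here cover counting error only.

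The members held 1226836 UMIs, with a median of 8765.5 per barcode, against 5202 in the comparison barcodes. A barcode with more UMIs has a better chance of showing Cdh5, Gja5 and Vwf together. With every barcode thinned to 2000 UMIs, the mean share of members over all draws was 0.414% in place of 1.23%. HTODemux, which assigns hashtags, called 54 members singlets, 27 doublets and 20 negative, and 1 was not run. Doublets were 26.5% of the members and 22.1% of the comparison barcodes. All 102 stay in the description, since the selection did not use hashtags.

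The chosen genes were present at low counts. Gja5 had 1 to 16 UMIs per member with a median of 2, and Vwf had 1 to 25 with a median of 3. In 14 members each gene had 1 UMI, and in 46 members each had at least 2. Hepatocyte-rich barcodes, with at least 10% of UMIs from 14 hepatocyte genes, are cells that should lack both genes. Of these 48 barcodes, 0 had Gja5, which allows a share of up to 6.25%, and 8.33% had Vwf at a median of 37461.5 UMIs, and Vwf was in 1.84% of them after thinning. The share in the members was fixed by the selection, so the 2 are not compared. The pan-endothelial list summed to 6169.5 CPM (UMIs per 1000000) in the members and 4172 CPM in the comparison, and 2 of its 14 genes, Pecam1 and Tek, were at least 2-fold higher. Of the 102 members, 1 had no UMI of that list.

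Across 11958 genes with at least 200 UMIs over both classes, 289 were at least 2-fold higher in the members (2.42%) and 263 at least 2-fold lower (2.2%), on log2 ratios with 10 CPM added. All fold limits below are on that scale, and ratios are plain ratios of CPM with an exact conditional 95% interval.

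The arterial list had the highest median log2 ratio of the 25 lists. Of its 19 genes with enough UMIs, 13 were at least 2-fold higher and 0 lower, with a median log2 ratio of 1.59 beside -0.04 over all genes tested. Summed, the list was at 6070.1 CPM in the members and 1378 CPM in the comparison. Among barcodes, its median was 63.5 UMIs per 10000 in the members, with quartiles of 39.8 and 103, and 10.7 in the comparison, with quartiles of 5.84 and 18.4. The members just inside the selection, with 1 UMI each of Gja5 and Vwf, were at 2790 CPM, and those with at least 2 of each at 7328 CPM.

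Bmx, a Tec-family kinase of arterial endothelium, was at 186 CPM in the members and 6.88 CPM in the comparison, a ratio of 27.0 (22.8 to 31.9). It was seen in 72 of 102 members and its CPM was above that of the comparison barcodes in all 6 hashtag groups, on 1 UMI each in iSuRe-Cre heart and iSuRe-HadCre liver. Gja4, which encodes connexin 37, the partner of connexin 40 in arteries, was at 402 and 52.0 CPM, a ratio of 7.72 (7.01 to 8.50). Of the other connexins, Gja1 (connexin 43) was lower, at 21.2 and 81.7 CPM. The arterial transcription factors Sox17 and Mecom were at 355 and 1197 CPM in the members, 3.19 and 5.74 times the comparison. Efnb2, the ephrin that marks arteries, was at 302.4 and 117 CPM. The guidance ligand Sema3g had a ratio of 6.99 (5.77 to 8.42). Hey2, an arterial Notch target, had 27 UMIs in 10 members and too few overall to be among the genes tested, at 22.0 CPM against 1.70 CPM. Dll4, Unc5b, Cxcr4, Notch4, Alpl and Nrp1 did not reach 2-fold. For Dll4, the tip cell and arterial Notch ligand, the levels were 53.0 and 24.1 CPM.

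A pair of promoters are shown for arterial genes whose levels set the members apart, Gja4 and Bmx. Each is the 250 bases before the RefSeq start on GRCm38.p6, 5′ to 3′ in the sense of the gene. Gja4 lies on the minus strand at chr4:127314040-127314289 and Bmx on the minus strand at chrX:164258194-164258443. Capitals mark TGGGAA (the RBPJ core of Notch signalling), ACAAT (a SOX core), CCGGAA (an ETS core) and GGGTG (a KLF core), searched on both strands.
Gja4: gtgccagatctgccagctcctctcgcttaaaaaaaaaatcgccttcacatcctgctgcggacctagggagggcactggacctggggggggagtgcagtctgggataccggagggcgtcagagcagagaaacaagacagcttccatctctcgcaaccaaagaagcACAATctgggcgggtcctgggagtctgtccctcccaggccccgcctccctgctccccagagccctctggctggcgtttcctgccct
Bmx: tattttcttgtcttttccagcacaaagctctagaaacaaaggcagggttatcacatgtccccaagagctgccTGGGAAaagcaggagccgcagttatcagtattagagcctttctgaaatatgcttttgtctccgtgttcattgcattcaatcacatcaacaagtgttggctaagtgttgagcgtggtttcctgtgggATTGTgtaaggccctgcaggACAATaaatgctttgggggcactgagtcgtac
The Gja4 stretch held 1 SOX core, and the Bmx stretch held 1 RBPJ core and 2 SOX cores. Such letters are common: over 32851 promoters of that length, 21.6% held TGGGAA, 27.7% ACAAT, 12.03% CCGGAA and 52.0% GGGTG. Among 15 promoters of 10 arterial genes that were higher in the members, 20.0% held TGGGAA, 26.7% ACAAT, 0% CCGGAA and 40.0% GGGTG. A match is a run of letters and not a shown binding site.

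Elastic fibre genes were the largest differences. Of 23 vessel-wall matrix genes, 10 were at least 2-fold higher and 2 lower. Eln was at 3013 CPM in the members and 68.1 CPM in the comparison, the highest of all genes tested by log2 ratio (ratio 44.3, 42.3 to 46.3). Fbln5, which tethers elastin to cells, was at 875 and 30.2 CPM, a ratio of 29.0 (26.8 to 31.3). Fbln2 was at 1492 and 86.3 CPM and Mgp, matrix Gla protein, an inhibitor of vessel calcification, at 1704 and 74.9 CPM. Lox, which cross-links elastin, had a ratio of 13.7 (11.4 to 16.4), and the microfibril genes Fbn1 and Ltbp4 ratios of 5.52 and 8.05. The 2 lower genes were the basement membrane genes Col15a1 and Nid2, at 17.9 CPM each. Col4a1, the main basement membrane collagen, was at 663 and 1241 CPM and did not reach 2-fold.

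Eln was spread very unevenly. Its UMIs per member ran from 0 to 542 with a median of 5, it was absent from 13 members, and the 5 highest members held 53.1% of its UMIs. Without those 5, it stood at 1529.7 CPM, still 22.5 times the comparison. Eln and Fbln5 went together over the 102 members (Spearman's rho 0.744, UMIs as a share of each barcode's total), while Eln and Gja4 did not (rho -0.11). These barcodes share a library and differ in depth, so the coefficients only describe them.

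**Figure D1:**
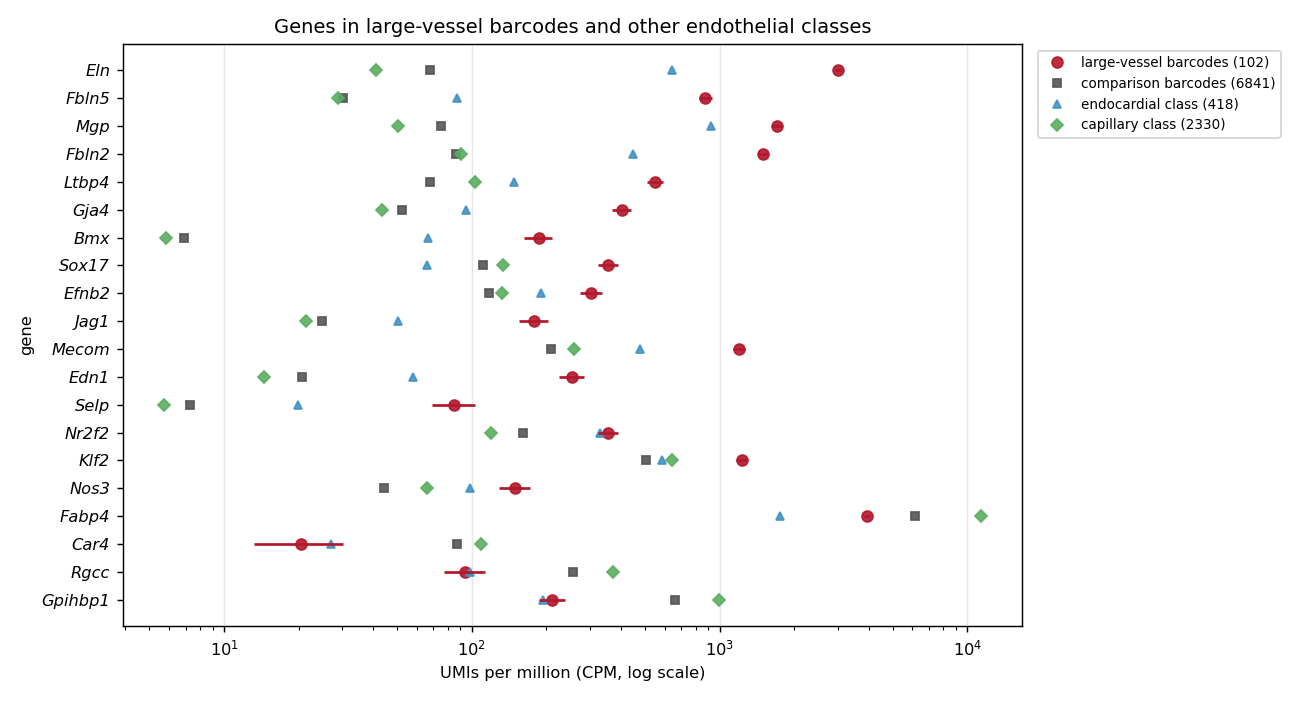
CPM (log scale) of 20 genes in 102 large-vessel, 6841 comparison, 418 endocardial and 2330 capillary barcodes; red bars are exact Poisson 95% intervals of the large-vessel sums. Eln, Fbln5 and Bmx stand far to the right in the large-vessel barcodes, and Fabp4, Car4, Rgcc and Gpihbp1 to the left of the capillary class. Capillary barcodes were chosen by a UMI each of Cdh5, Tcf15 and Fabp4 and no Gja5 or Vwf. Their Fabp4 level was thus raised by that choice.

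Of 15 Weibel-Palade and secretion genes, 7 were higher and 0 lower. Selp, the P-selectin stored beside von Willebrand factor, was at 84.8 and 7.32 CPM but in only 20 members. Edn1, which encodes the vasoconstrictor endothelin-1, was at 253 and 20.6 CPM in 68 members, and Ece1, which activates it, at 259 and 99.5 CPM. Procr, the endothelial protein C receptor, had a ratio of 12.5 (10.2 to 15.2). Sele, Mmrn2 and Il6st completed the group. Rab27a, a GTPase of the storage machinery itself, was at 14.7 and 9.14 CPM and did not reach 2-fold.

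Flow-responsive genes were also higher, 5 of 10 by at least 2-fold. Klf2 and Klf4, the transcription factors induced by laminar shear, were at 1226 and 502 CPM in the members and at 503 and 186 CPM in the comparison. Nos3, endothelial nitric oxide synthase, was at 149 and 44.0 CPM. Of 16 BMP and TGF-beta genes 5 were higher, among them the inhibitory Smad6 (115 and 47.5 CPM) and Smad7 (255 and 101 CPM) and the ligand Bmp4 (117 and 19.4 CPM).

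Among 9 Notch receptors and ligands, 4 were higher and 0 lower. Jag1 was at 178 and 24.8 CPM, Jag2 at 90.5 and 25.04, Dll1 at 60.3 and 11.3, and Notch1 at 83.1 and 35.5. Of 5 Notch targets tested, Hey1 was higher, at 70.9 and 18.9 CPM, and Hes1 was at 166 and 149 CPM. Hes5 had 2 UMIs in the members, and its ratio to the comparison was 0.116 (0.0141 to 0.422).

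The remaining genes of the 15 highest were Htra1 (a secreted protease), Adgrg6 (an adhesion receptor), Ctsh (a lysosomal protease), Nuak1 (a kinase), Clu (the chaperone clusterin) and Cytl1 (a small secreted protein). Their ratios ran from 8.94 for Clu to 16.0 for Adgrg6. Cytl1 was in 13 members only.

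Over all members, capillary genes were lower. Of the 14 listed, 5 were at least 2-fold lower and 0 higher, with a median log2 ratio of -0.63. Car4, a carbonic anhydrase on the capillary surface, was at 20.4 and 87.0 CPM, a ratio of 0.234 (0.151 to 0.346). Gpihbp1, which carries lipoprotein lipase to the capillary lumen, was at 211 and 661 CPM, and Rgcc at 93.7 and 256 CPM. Lpl and Meox1 made up the 5. Fabp4, the fatty acid binding protein, stayed high at 3950 CPM against 6142 CPM, and Tcf15 was at 117 and 128 CPM. The capillary list still summed to 6328 CPM, so the members did not lack it. In heart its sum was 8565 CPM in control members and 16317 in comparison barcodes, and 7387 and 12939 CPM in iSuRe-HadCre. In liver these values were 4305 and 4572 CPM in control and 4878 and 5035 CPM in iSuRe-Cre, so there the sums were close. The 2 iSuRe-Cre heart members were at 3915 CPM beside 18776, and the 1 iSuRe-HadCre liver member at 2174 beside 4893. The endocardial and sinusoidal classes below were at 5835 and 6215 CPM.

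Other lists gave mixed or low values. Of 13 venous genes 6 were higher and 3 lower. Nr2f2, the transcription factor of venous identity, was at 355 and 161 CPM, while Aplnr was at 36.7 and 91.3 CPM. Of 13 sinusoidal genes 7 were lower and 0 higher, and of 13 endocardial genes 5 were higher and 4 lower. Both lists are tied to the Npr3 and Stab2 limits that chose the members, and the comparison barcodes had no such limits. Sinusoidal genes summed to 797 CPM in the members, 1319 CPM in the comparison and 672 CPM in 6068 comparison barcodes under the same limits. Endocardial genes summed to 808, 510 and 485 CPM in that order. Of 16 cell cycle genes 2, Ccnb1 and Ccnb2, were lower, and the list summed to 1002 and 1768 CPM. Top2a was at 129 and 250 CPM.

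None of the cardiomyocyte, mural, fibroblast, hepatocyte, macrophage, platelet or erythroid genes tested was at least 2-fold higher. Cardiomyocyte genes summed to 74.2 CPM in the members and 145 in the comparison, mural genes to 125 and 195, fibroblast genes to 663 and 832, and macrophage genes to 151 and 418. Myh6, the heart muscle myosin, had 0 UMIs in the members, which allows up to 2.45 CPM. Hepatocyte genes summed to 3239 and 3432 CPM, and 4 members had at least 1% of their UMIs in that list, all 4 of them HTODemux doublets. Without them Alb fell from 251 to 38.2 CPM, while Eln was at 3252, Gja4 at 436 and Bmx at 203 CPM.

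The 15 lowest genes were mainly neutrophil products. S100a8 was at 84.0 CPM in the members and 847 in the comparison, S100a9 at 130 and 819, and Ngp at 21.2 and 180. Stfa1, Stfa2, Stfa2l1, Stfa3, Cstdc4, Cstdc5, Lcn2 and Lyz2 belonged with them. In the free RNA, taken from barcodes of 10 to 100 UMIs, S100a8 was at 725 CPM and S100a9 at 761 CPM, and the part of free RNA in these ratios was not tested. The chemokine Cxcl9 had 5 UMIs in 4 members (4.08 and 124 CPM). The lymphatic Ccl21a, the sinusoidal Dnase1l3 and the sodium-proton exchanger gene Slc9a9 were the others.

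Barcodes with only 1 of the chosen genes differed from each other. Under the same Npr3 and Stab2 limits, 143 barcodes had Gja5 without Vwf, 841 had Vwf without Gja5 and 6068 had neither. Vwf was found in 41.6% of the Gja5 barcodes and in 12.2% of those without Gja5. Both genes chose the barcodes, so these shares only describe them, and depth was not matched. Median UMIs were 8765.5 with both genes, 5866 with Gja5 only, 6426 with Vwf only and 4841 with neither. The arterial list was at 3898 CPM with Gja5 only, 1764 with Vwf only and 1422 with neither, beside 6070.1 with both. Gja4 was at 312 CPM with Gja5 only and 62.3 with Vwf only, and Sox17 at 341 and 94.97 CPM. Venous genes had the opposite order, at 955 CPM with Gja5 only and 2362 with Vwf only, and Nr2f2 was at 113 and 432 CPM. Selp was at 3.01 CPM with Gja5 only and 145 CPM with Vwf only. Eln was at 246 CPM with Gja5 only, 393 with Vwf only and 3013 with both.

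Vessel-wall matrix genes summed to 13803 CPM in the members, 8496 in the capillary class, 6832 in the endocardial class (at least 2 Npr3 UMIs, 418 barcodes) and 4592 in the sinusoidal class. Single genes had another order: Eln was at 641 CPM in the endocardial class, 41.2 in the capillary class and 95.8 in the sinusoidal class, and Mgp at 922, 50.2 and 70.4 CPM. The arterial list was at 2504 CPM in the endocardial, 1591 in the capillary and 1307 in the sinusoidal class. The limits left out 67 more barcodes with Cdh5, Gja5 and Vwf, of which 29 were past the Npr3 limit alone, 28 past the Stab2 limit alone and 10 past both. Arterial genes summed to 5762 CPM in the 29 and 2896 CPM in the 28, and to 4272 CPM in the 20 members with 1 Npr3 UMI and 1582 CPM in the 9 members with 2 Stab2 UMIs.

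Members did not form 1 kind of cell. Gja4 was found without Nr2f2 in 44 of them and Nr2f2 without Gja4 in 26, both in 27 and neither in 5, and the 2 genes ran against each other (rho -0.561). The split followed the tissue hashtag. Of 25 heart members 20 had only Gja4, 0 only Nr2f2, 2 both and 3 neither. Of 29 liver members 4 had only Gja4, 13 only Nr2f2 and 12 both. Gja4 and Nr2f2 levels thus overlapped between tissues, but Nr2f2 was seen in 2 heart and 25 liver members. With a hashtag minimum (at least 25 UMIs, 5 times the median and 3 times the next hashtag), it was seen in 1 of 10 heart and 24 of 25 liver members. In the comparison barcodes Nr2f2 was at 108 CPM in heart and 300.7 in liver. By group, heart was at 134, 99.8 and 80.2 CPM in control, iSuRe-Cre and iSuRe-HadCre. Liver was at 114, 390 and 153 CPM in the same order, so control liver was below control heart there.

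**Figure D2:**
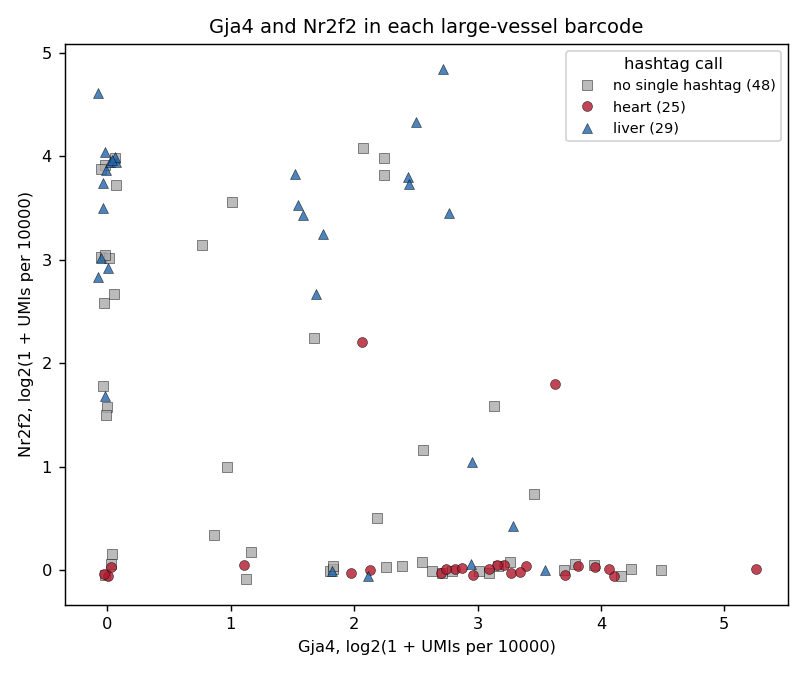
Gja4 against Nr2f2 in each of 102 large-vessel barcodes, as log2 of 1 plus UMIs per 10000, with small random shifts so that points at 0 can be told apart. Of the 25 heart barcodes (red circles) 23 lie at 0 for Nr2f2, and the 29 liver barcodes (blue triangles) mostly lie above it; grey squares are the 48 without a single hashtag.

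Over 1144 genes with at least 100 UMIs in heart and liver members, 69 were at least 2-fold higher in heart (6.03%) and 50 in liver (4.37%). Genotype differs with tissue here: the heart members were 10 control, 2 iSuRe-Cre and 13 iSuRe-HadCre, and the liver members 7, 21 and 1, so over all members the tissue and the genotype cannot be told apart. Within the 10 control heart and 7 control liver members alone, Gja4 was at 850 and 189 CPM (ratio 4.498, 2.53 to 8.71). Jag1 was at 387 and 58.2 CPM, and Nr2f2 at 38.0 and 639.9 CPM in 1 and 5 members. The tissue of these control calls is not certain. Cdh5 barcodes called control heart or control liver each had a median of 7 UMIs of their own hashtag, and the members 24.5 and 49. In comparison barcodes sinusoidal genes summed to 721 CPM in control liver, 586 in control heart and 5377 in iSuRe-Cre liver. Over all members, arterial genes summed to 8917 CPM in heart and 5909 CPM in liver members, and 4 of 10 tested were higher in heart. Jag1 was at 408 and 120 CPM, Gja4 at 749 and 302.04, Efnb2 at 523 and 233, and Tm4sf1, a membrane protein of arterial ECs, at 2253 and 1016. Eln was at 6266 and 1683 CPM, but 3 heart members held 1394 of the 1749 heart UMIs, and without them heart was at 1512 CPM, below liver (ratio 0.899, 0.784 to 1.0295). Fn1, fibronectin, was at 1111 and 230 CPM. Venous genes summed to 1498 and 3357 CPM. Nr2f2 was at 46.6 CPM in heart and 796 in liver, 17.1-fold higher in liver (9.82 to 32.5). The neuregulin gene Nrg1 was at 10.7 CPM in 1 heart member and 437 CPM in 20 liver members. Plvap, the diaphragm protein of fenestrated vessels, was in 4 heart and 25 liver members, and the endothelin receptor gene Ednrb in 8 and 26. Rspo3, a Wnt enhancer, rested on 3 liver members. Among the genes highest in heart, Cxcl12, the chemokine of arterial ECs, was at 4256 and 777 CPM. The retinol-binding Rbp7 had 114 UMIs in 14 heart members and 0 in liver, which is at least 43.3-fold higher when 3 counts over the liver members are taken as the floor. Klf4 was at 1014 and 296 CPM and Klf2 at 2164 and 912 CPM. The histone genes H1f5 and H2ac8 also led, in 4 and 5 heart members. In the comparison barcodes arterial genes summed to 1701 CPM in heart and 1169 CPM in liver.

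Clustering of the members without the 5 chosen genes, Notch1 and the transgenes gave 7 sub-clusters of 7 to 20 barcodes. They are described by leading genes and carry no test. Sub-cluster 1 (20 barcodes, led by Btnl9, Rbp7, Depp1 and Nebl) and sub-cluster 6 (11, led by Nr4a2, Egfl8, Col8a1 and the heat-shock genes Hspa1a and Hspa1b) had the highest arterial sums, at 10223 and 10122 CPM. Gja4 was at 761 and 646 CPM in them, and Nr2f2 at 12.8 and 11.0 CPM. They held 17 of the 25 heart members. Sub-cluster 7 (7 barcodes, with Cytl1, Gxylt2, Mfap5 and Eln among its leading genes) had Eln at 21271 CPM, matrix genes at 42002 CPM, fibroblast-list genes at 1737 CPM (1729 in sub-cluster 2) and 6 of the 10 members with Hey2. Its endocardial sum of 2395 CPM was the highest of the 7 sub-clusters, beside 2132 CPM in the endocardial class. Its capillary sum of 1502 CPM was the lowest.

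Sub-clusters 3 and 4 had the highest Nr2f2 levels, and 14 and 8 liver members. Nr2f2 was seen in 18 of 18 and 15 of 16 of their barcodes, and also in 16 of 19 of sub-cluster 2 at 190 CPM. Sub-cluster 3 (18 barcodes) was led by Selp, Maf, Slit2, Sele and Gata4, and sub-cluster 4 (16) by Slfn2, Adgrg6, Bace2, Procr and Plvap. Nr2f2 was at 1130.1 and 974 CPM, Vwf at 897 and 930 CPM and Gja4 at 161 and 122 CPM. Sub-cluster 5 (11 barcodes, led by Scn7a, Abi3bp, Hpgd, Foxf1 and Tmem100) had no Nr2f2 and Gja4 at 858 CPM, hardly any Fabp4 (38.1 CPM), and 7 members negative for all hashtags. Its cell cycle list was at 2802 CPM, but 2 of its 11 barcodes held 246 of the 294 UMIs, and the others were at 692 CPM. Sub-cluster 2 (19 barcodes, led by Apoa1, Ttr, Mt1, Rbp4 and Afp) had the lowest pan-endothelial sum, at 2279 CPM, arterial genes at 1985 CPM and hepatocyte genes at 11084 CPM. In it 10 barcodes were HTODemux doublets and 5 negative.

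**Figure D3:**
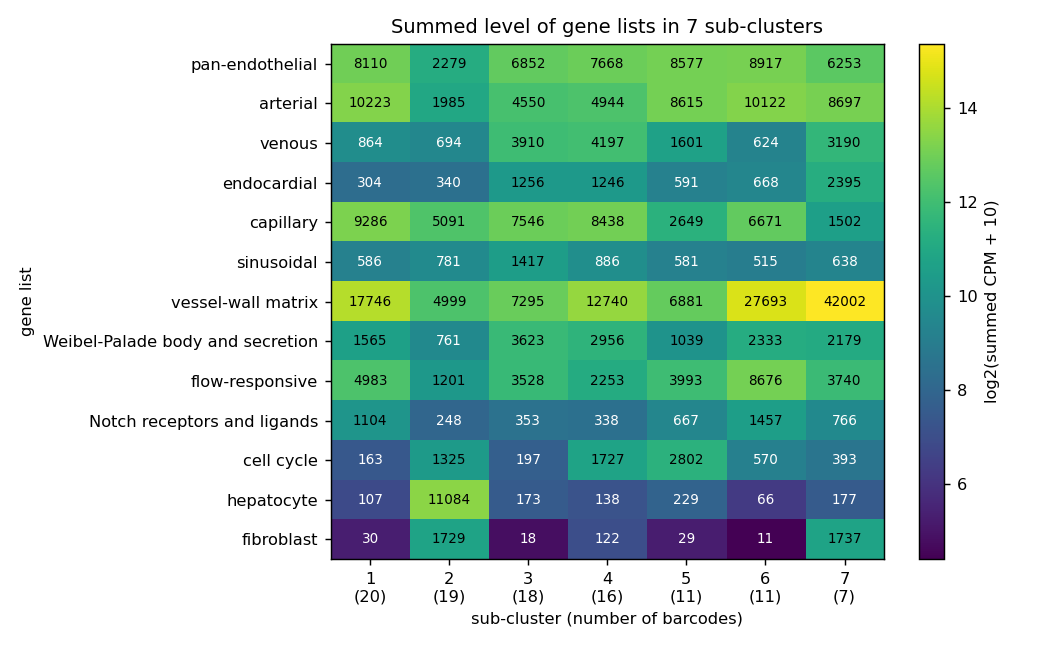
Summed CPM (numbers in the cells, colour as log2 of the sum plus 10) of 13 gene lists in 7 sub-clusters of the 102 large-vessel barcodes, with the number of barcodes in brackets. Venous sums are highest in sub-clusters 3, 4 and 7 and matrix sums in 6 and 7. The hepatocyte sum of 11084 CPM in sub-cluster 2 came mostly from 4 barcodes.

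The share of members among Cdh5 barcodes was compared between the 6 groups, whose members changed with the hashtag calls. With the barcodes in another random order, HTODemux left 5 of the 10 control heart members in that group, and iSuRe-Cre heart had 4 members in place of 2 in each of 3 orders. Of the control and iSuRe-HadCre heart members, 5 of 10 and 6 of 13 had under 25 UMIs of their own hashtag. With HTODemux singlets, 10 of 713 control heart barcodes were members (1.40%, 0.675 to 2.56%), 2 of 548 in iSuRe-Cre heart (0.365%, 0.0442 to 1.31%) and 13 of 545 in iSuRe-HadCre heart (2.39%, 1.28 to 4.04%). In liver they were 7 of 254 in control (2.76%, 1.115 to 5.60%), 21 of 892 in iSuRe-Cre (2.35%, 1.46 to 3.58%) and 1 of 311 in iSuRe-HadCre (0.322%, 0.0081 to 1.78%). Every pair of intervals among the 3 heart groups overlapped, and every pair among the 3 liver groups. Between iSuRe-Cre and iSuRe-HadCre heart they met only from 1.28 to 1.31%. Overlap does not show equal shares, and a difference between the shares was not tested directly. With the hashtag minimum, iSuRe-Cre heart had 3 of 214 (1.40%) and iSuRe-HadCre liver 1 of 52 (1.92%), and control liver 4 of 42 (9.52%, 2.66 to 22.6%). The intervals within each tissue overlapped under this minimum too, in liver with iSuRe-Cre reaching up to 3.05%. Thinned to 2000 UMIs, the shares under HTODemux were 0.292, 0.093 and 0.753% in control, iSuRe-Cre and iSuRe-HadCre heart. In these 3 groups the median depth of Cdh5 barcodes was 6344, 11965.5 and 6388 UMIs. Fewer such cells and less Gja5 or Vwf RNA per cell cannot be told apart.

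**Figure D4:**
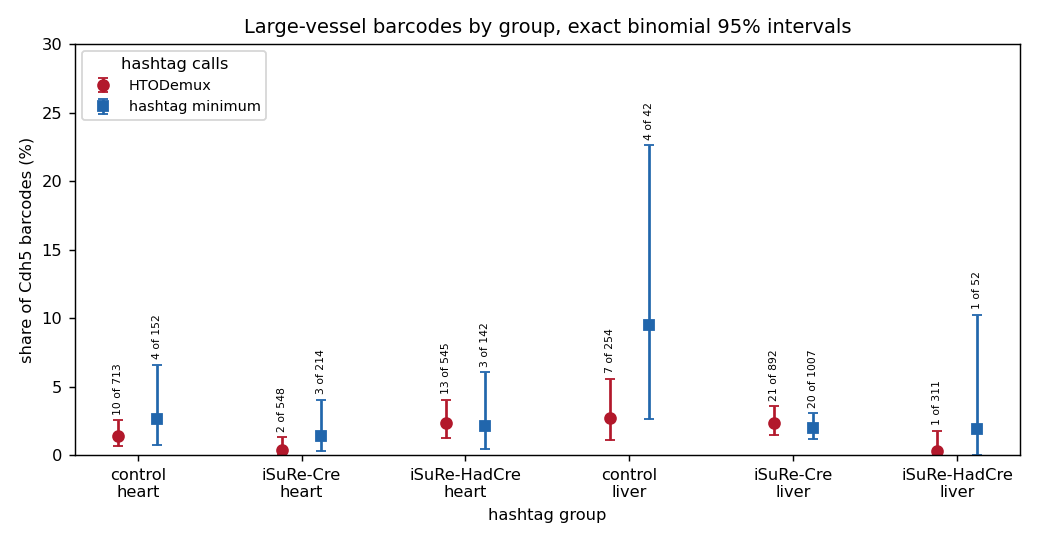
Share of Cdh5 barcodes that were large-vessel barcodes in 6 hashtag groups, with exact binomial 95% intervals, under HTODemux (circles) and the hashtag minimum (squares); the counts stand above each bar. The share of 9.52% in control liver under the hashtag minimum rests on 4 of 42 barcodes.

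The differences from the comparison barcodes were then read within groups. Of the 289 higher genes, 253 were higher by any margin within control heart, 260 within iSuRe-HadCre heart and 278 within iSuRe-Cre liver. In all 3 of these groups 234 were higher. The other groups had 209 in iSuRe-Cre heart, 227 in control liver and 155 in iSuRe-HadCre liver. The 289 were called on sums that held these same members, so the counts were partly fixed and only describe the groups. The share over all genes tested was not computed. Eln was at 3971 CPM in control heart members and 54.6 in control heart comparison barcodes, and at 5466 and 47.1 CPM in iSuRe-HadCre heart. In iSuRe-Cre heart it was at 24155 CPM from 2 members, of which 1 held 542 of 543 UMIs.

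Notch1, the floxed gene, was high in control members and low in the iSuRe members. The 10 control heart members held 1 to 7 UMIs each with a median of 3.5, 36 in all. Of 13 iSuRe-HadCre heart members, 11 had no Notch1 UMI, 1 had 1 and 1 had 2. Control heart members stood at 273 CPM (Poisson interval 191 to 378) and iSuRe-HadCre heart members at 24.0 CPM (4.95 to 70.2), a ratio of 0.0878 (0.017 to 0.278). The groups overlapped only at 1 and 2 UMIs. The 2 iSuRe-Cre heart members had 0 and 2 UMIs, a ratio of 0.325 (0.038 to 1.26) that did not exclude 1. In liver, 5 of 7 control members had Notch1 (218 CPM) and 4 of 21 iSuRe-Cre members (29.0 CPM), a ratio of 0.133 (0.046 to 0.347). The 1 iSuRe-HadCre liver member had no UMI, where 3 counts would be 384 CPM.

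Control members held more Notch1 than the control comparison barcodes, at 273 against 86.3 CPM in heart and 218 against 52.3 CPM in liver. In the iSuRe groups the values of members and comparison were 24.0 and 19.9 CPM in iSuRe-HadCre heart and 29.0 and 22.1 CPM in iSuRe-Cre liver. Notch1 in the free RNA was at 19.5 CPM. In iSuRe-HadCre heart members Gja4 was at 712 CPM against 850 in control (ratio 0.838, 0.627 to 1.116). With the hashtag minimum, on 3 and 4 members, the Gja4 ratio was 0.363 (0.160 to 0.750). Efnb2 was at 504 against 615 CPM (0.82, 0.58 to 1.15) under HTODemux. Hey1 was at 104 CPM in 5 of 13 and 159 CPM in 5 of 10 members (0.653, 0.3 to 1.37). All of these members were chosen by a UMI of Gja5, itself an arterial gene. Cells without Gja5 RNA were left out, so the ratios do not show the arterial genes of such cells. In liver, Hey1 had 2 UMIs in 1 of 21 iSuRe-Cre members and 12 UMIs in 3 of 7 control members (ratio 0.0475, 0.005 to 0.213). A single control member held 8 of the 12, and without it the ratio was 0.126 (0.0114 to 0.878). In the same liver groups the ratio was 0.332 (0.169 to 0.662) for Hes1, 0.122 (0.020 to 0.535) for Dll4 and 0.114 (0.011 to 0.696) for Notch4. With the hashtag minimum the Dll4 and Notch4 intervals held 1. Jag1 and Jag2 were at 2.42 (0.864 to 9.40) and 2.14 (0.497 to 19.3). The tissue of the control liver calls is not certain, as given above.

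WPRE, a stabilising element in the reporter transcript, was found in 11 of 13 iSuRe-HadCre heart members at 1617 CPM, 2.73 times control heart (2.09 to 3.59). Control members also carried it, at 592 CPM in 10 of 10 heart and 887 CPM in 6 of 7 liver members. In iSuRe-Cre members it was low, at 44.5 CPM from 1 UMI in heart and 45.6 CPM in liver. Tomato followed in heart, at 352 CPM in iSuRe-HadCre and 83.5 CPM in control members (ratio 4.22, 2.14 to 9.05). ERT2, the tamoxifen-binding part of CreERT2, was at 37.8, 37.6 and 38.4 CPM in control, iSuRe-Cre and iSuRe-HadCre heart comparison barcodes. In liver it was at 14.2, 15.9 and 18.7 CPM, so the controls cannot be taken as free of CreERT2.

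**Figure D5:**
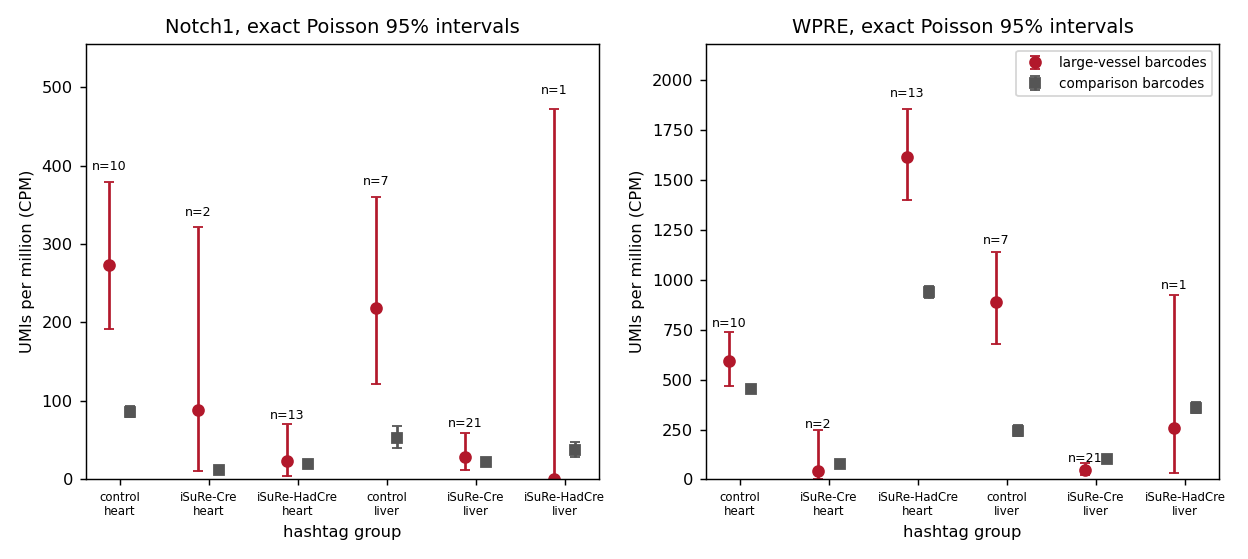
Notch1 (left) and WPRE (right) in CPM by hashtag group for large-vessel (red circles, n above) and comparison (grey squares) barcodes, with exact Poisson 95% intervals. Notch1 is at 273 and 218 CPM in control members and at 24.0 and 29.0 CPM in iSuRe-HadCre heart and iSuRe-Cre liver members.

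Over 405 genes with at least 100 UMIs in iSuRe-HadCre and control heart members, 21 were at least 2-fold higher (5.19%) and 10 lower (2.47%) in iSuRe-HadCre. The 8 highest were Clu, Adamts1, Ppp1r15a, Cald1, Hspa1a, Slc8a1, Thsd7a and Atf3. Adamts1, a matrix protease, was at 1489 and 342 CPM (ratio 4.36, 3.13 to 6.18) and was seen in 13 of 13 and 8 of 10 members. Ppp1r15a, Hspa1a and Atf3 are stress-response genes, at ratios of 4.29, 3.33 and 2.93. Sub-cluster 6, led in part by such genes, held 6 of the 13 iSuRe-HadCre heart members and 0 of the 10 control heart members, and the part of cell handling in this was not tested. The 8 lowest were Igfbp7, Rbp7, Col4a2, Mgll, Akap12, Col4a1, Stmn1 and Tspan13. Col4a1 and Col4a2, the chains of basement membrane collagen, were at 624 and 312 CPM against 1829.9 and 1283 CPM. Igfbp7, a secreted factor of ECs, was at 208 and 1009.8 CPM, in 7 of 13 and 10 of 10 members. Eln was seen in 13 of 13 iSuRe-HadCre heart members with a median of 25 UMIs, and in 8 of 10 control members with a median of 1. A single control member held 505 of 523 UMIs, and the sums were 5466 and 3971 CPM (ratio 1.38, 1.23 to 1.55). The UMIs per barcode overlapped between these groups.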

How the data were processed

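Single-cell RNA and hashtag libraries of 1 pooled 10x Genomics run were analysed. The authors deposited UMI counts per feature and barcode. Per the submitters' processing notes, Cell Ranger 7.1.0 with GRCm38 (mm10) made them and Seurat was used afterwards. Counting of reads that fit several genes was not described in the sources used here.

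Barcodes were filtered as given with the results. UMIs were summed per class, scaled by the class total to counts per 1000000 UMIs (CPM). Genes needed 200 UMIs over both classes, or 100 between groups within the members, and 10 CPM were added before log2 ratios. Poisson, binomial and conditional intervals (95%) cover counting error only, since each group is 1 sample and no p-value was computed. Hashtags were assigned with HTODemux of Seurat 5.3.0 (R 4.3.3, positive quantile 0.99), the only treatment of doublets, and no doublet caller was run. Sub-clusters came from scanpy 1.11.5 (1000 variable genes, 15 components, 10 neighbours, resolution 1.0), and intervals from scipy 1.17.1 under Python 3.11.15. Scripts were tested on simulated data.

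Genes named are those of the gene lists, the 15 highest and 15 lowest by log2 ratio, and the 8 highest and 8 lowest between groups; leading genes of sub-clusters were chosen after their values were seen. The members and lists were chosen with earlier results of these data known. The heart against liver comparison, the random barcode orders for HTODemux, the removal of hepatocyte-rich members, the control-only heart against liver values and the removal of the members highest in single genes were chosen after seeing the data. Alternatives covered the comparison barcodes, UMI minimums, depth, doublets, weighting, normalization, the CPM added, the mitochondrial limit, the hashtag calls and reporter-positive barcodes. The 7 hashtag features without a group were not used in any comparison.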

Additional observations from a re-analysis of the deposited data

Results flagged for a closer look

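Hashtag features that the labels tie to no group carried UMIs in the 102 large-vessel barcodes, beside the 6 hashtags in use. HTO304 had 1904 UMIs and HTO308 had 2813. CMO301 had 8377 UMIs, CMO302 had 7014, CMO303 had 10702, CMO304 had 12774 and CMO305 had 8828. No control sample shows how much of this is background.

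Gja4 in iSuRe-Cre against control members had ratios on opposite sides of 1 in heart and liver. The ratio was 0.418 (0.176 to 0.853) in heart, where iSuRe-Cre had 2 members, and 1.82 (1.008 to 3.56) in liver, where it had 21 members. In liver 2 iSuRe-Cre members held 48 of the 83 UMIs, and without them the ratio was 1.032 (0.533 to 2.13). The difference between the tissues was not tested.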

How the results depend on the processing

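Counts past 2-fold moved with the CPM added before the ratio. The 289 higher genes became 464 with 1 CPM and 107 with 50 CPM, and the 263 lower genes became 1173 and 42. The lower genes were 573 with at least 2 UMIs each of Gja5 and Vwf, and 490 without HTODemux doublets. Capillary genes lower went from 5 to 2 with 50 CPM. The 13 higher arterial genes stayed within 1.5 times that count under every alternative run.

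Shares by group moved most with the hashtag calls and depth. With the hashtag minimum they were 2.63% in control heart, 1.40% in iSuRe-Cre heart, 9.52% in control liver and 1.92% in iSuRe-HadCre liver. With at least 2 UMIs each of Gja5 and Vwf they were 0.421% in control heart and 0.785% in iSuRe-Cre liver. Thinned to 2000 UMIs they were 0.292% in control heart, 0.753% in iSuRe-HadCre heart and 0.714% in iSuRe-Cre liver. The Notch1 ratio of iSuRe-HadCre to control heart members, 0.0878, was 0 with the hashtag minimum, 0 with a positive quantile of 0.95, and 0.224 (0.0401 to 0.847) with at least 2 UMIs each of Gja5 and Vwf. In iSuRe-Cre liver it was 0.133, and ran from 0.0639 in random order 1 to 0.204 with a mitochondrial limit of 10%. Between these groups the 21 higher genes became 8 and 12 in random barcode orders 2 and 3, and 0 with the hashtag minimum, where 6 in place of 10 were lower. The cause of these shifts was not tested.

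Of the recomputed values, 95 planned and 46 added ones stayed within the limits, and 18 planned and 4 added ones moved. Counts had to stay within 1.5 times the main count, and shares and Notch1 ratios within the 95% interval of the main value. Those intervals are wide, so staying within them does not show a stable value. The Gja4 ratio in iSuRe-Cre liver was tallied as staying although it went from 1.82 to 1.032. The Eln ratio of heart to liver members changed direction, from 3.72 to 0.899 without the 3 highest heart members. Outside that tally, the Eln ratio of iSuRe-HadCre to control heart members went from 1.38 to 0.188 with the hashtag minimum. No paired analysis was possible because each group is 1 sample.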
